A study of Mus musculus with 6 samples.

Results

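Translation initiation and elongation factors are the proteins that load ribosomes onto mRNAs, choose the start codon and move the ribosome along the coding sequence. Their genes were taken from the deposited expression tables of mouse oligodendrocyte precursor cells (mOPCs) by symbol, as all genes whose names begin with Eif1 to Eif6 or with Eef1 or Eef2, without the eIF2 alpha kinases (Eif2ak) and the Argonaute genes once named Eif2c. This gave 58 of 23038 genes, of which 54 were abundant enough to be tested among the 12505 tested genes of the whole table. The cells were primary mOPCs purified from mouse embryos by immunopanning, sampled 72 h after transfection. Control siRNA gave 3 libraries (siNC) and siRNAs that target Qk gave the other 3 (siQk). Qk encodes the Qki RNA-binding proteins, which were knocked down (KD). The study was about Qki5 in motor neurons and took mOPCs along as a control of a lineage other than neurons. Per the paper 3 different siRNAs were used against Qk, and which library received which is not stated in the sources used here. The samples of each group are described as independent replicate cultures. Whether these came from separate animals is not stated.

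Initiation begins when eIF4F binds the cap of an mRNA through its cap-binding subunit eIF4E, its scaffold eIF4G and its helicase eIF4A. The small ribosomal subunit arrives with eIF3, with the initiator tRNA carried by eIF2, and with eIF1, eIF1A and eIF5, which govern the choice of the start codon. eIF2B recharges eIF2 with GTP, and the eIF4E-binding proteins compete with eIF4G for eIF4E. During elongation eEF1A delivers aminoacyl-tRNAs, eEF2 moves the ribosome by a codon and eIF5A relieves ribosomes stalled at difficult peptide bonds. In oligodendrocyte lineage cells these factors are of interest because mutations of eIF2B cause a disease of white matter. Several factors are encoded by pairs of paralogs, and eIF5A is one of these: a single lysine of the protein is converted into hypusine, an amino acid found in no other known protein. The codons around that lysine are shown for both genes because this pair gave the largest contrast in fold change, with the lysine codon in capitals. Both were read from coding sequences of GENCODE M21 (GRCm38, the assembly that mm10 also names) and begin and end on either side of an intron, Eif5a at chr11:69918019-69919177 on the minus strand and Eif5a2 at chr3:28782190-28782730 on the plus strand.
Eif5a: aagactggcAAGcatggccatgccaaggtc
Eif5a2: aagactgggAAGcatggtcatgccaaggta
These stretches differed at 3 of 30 bases, and the aligned coding sequences were 72.7% identical. No run of 75 bases, the length of a read, was shared between the transcripts of Eif5a and Eif5a2, so that reads of one could be told from reads of the other.

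Qk itself was measured at 209, 206 and 163 RPKM (tags relative to exon length and library total) in the siNC libraries and at 51.3, 76.6 and 36.2 RPKM in the siQk libraries. Its log2 fold change was -1.98 (SE 0.28, n = 3 and 3, edgeR FDR = 0.00311), and 28.4% of its level was left. Libraries held 58166490 to 141045937 tags, of which the ribosomal precursor Rn45s took 3.11% in siNC replicate 1 and 0.169% to 0.389% elsewhere. The normalization factors from the trimmed mean of M-values (TMM) were 0.899 to 0.987 in siNC and 1.04 to 1.07 in siQk. RPKM values are not corrected by these factors, so their ratios between groups lie above the fitted fold changes given beside them. The libraries also differed in the genes of other lineage stages. The summed RPKM of 11 myelin and mature oligodendrocyte genes was 3455 to 6034 in siNC and 1466 to 2197 in siQk. That of 10 markers of dividing cells was 76.5 to 92.5 and 127 to 221. The 10 mOPC markers were all present, at a sum of 1104 to 1177 and 1309 to 1465, and moved in different directions, with 3 called higher (Olig1, Olig2 and Cspg4) and 1 called lower (Lhfpl3). Of 10 astrocyte markers (sum 293 to 413 and 288 to 311) 8 were tested and 4 called, all lower, with Gfap at -2.95 on the log2 scale, and Gja1 and Gjb6 were near 0. Of 12 neuron markers (sum 146 to 218 and 123 to 168) 10 were tested, with Snap25 and Nefl called higher and Gad2 lower, and Slc17a6 had no tags. The 10 fibroblast and vascular markers were each under 1 RPKM in all libraries. Of 10 microglia markers, 9 were under 1 RPKM in all libraries and the summed level was 0.734 to 3.32 in siNC and 0.343 to 0.413 in siQk. The part of these shifts in the results below was not tested, and in bulk RNA fewer cells of a type and less RNA per cell cannot be told apart.

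Of the 54 factors tested, 8 (14.8%) passed edgeR's quasi-likelihood test (called changed where P was below 0.01 and FDR below 0.1), against 31.0% of all 12505 genes. The genes higher in siQk were Eif4ebp2, Eif4a2, Eif5a, Eif3k and Eif3i, 5 in all, where 13.8% of all genes were called higher. The genes lower in siQk were Eif5a2, Eef1e1 and Eif4e3, 3 in all, where 17.2% of all genes were called lower. Fold changes of the factors were small, with a median absolute log2 fold change of 0.16 against 0.25 for all genes and 0.22 for the 6696 genes with an average logCPM over 5. Among the factors 77.8% lay within 0.25 of no change on the log2 scale, against 49.7% of all genes and 56.2% of those with an average logCPM over 5. Only Eif5a2 and Eef1e1, 3.70% of the factors, moved by 0.5 or more, as 24.1% of all genes did. The signed median was 0.08, against 0.01 for all genes, and without siNC replicate 2 it was 0.016, against 0.012 for all genes. On the RPKM scale divided by the TMM factor, the 3 siQk libraries lay entirely above the 3 siNC libraries for 13 factors and entirely below them for 7, where 27.8% and 26.5% of all genes did so (54.4% in either direction).

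The low share of called factors was not seen when siNC replicate 3 was left out. With all libraries and no filter on low counts, the share was also near that of all genes (21.1% against 23.4%). Without siNC replicate 3, 16 factors were called, 14 higher and 2 lower, which is 29.6% of those tested against 29.7% of all genes (12.9% higher and 16.8% lower). Within the siNC group replicate 3 had the highest scaled level of 33 of the 54 factors (61.1%), where it had the highest level of 33.9% of all genes. Small fold changes remained in the factors in all 14 alternative analyses: the median absolute log2 fold change, centred on the median of all genes, was 0.127 to 0.183 for the factors and 0.246 to 0.363 for all genes. The balance of higher and lower calls depended on the scaling. With library size alone the median of all genes shifted to 0.16 and that of the factors to 0.23, and the calls were 14 higher and 1 lower for the factors (23.9% and 10.9% for all genes), with 68.6% of the calls of all genes higher against 44.6% with TMM. With upper-quartile scaling the calls of the factors were 10 higher and 2 lower, against 17.9% and 14.3% of all genes. Shares of all genes called were 34.8% and 32.1% in these analyses. DESeq2 called 12 factors (39.1% of all genes), an FDR of 0.05 without the P cutoff 12 (36.9%), DESeq2's size factors in edgeR 8 (30.9%), no filter on low counts 12 (23.4%), filterByExpr 9 (28.4%) and the replicate number as a block 3 (22.4%). Without siNC replicate 1 or 2, 4 and 2 factors were called (25.4% and 28.6% of all genes), and without siQk replicate 1, 2 or 3, 4, 3 and 4 were (19.8%, 21.5% and 24.0%).

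**Figure D1:**
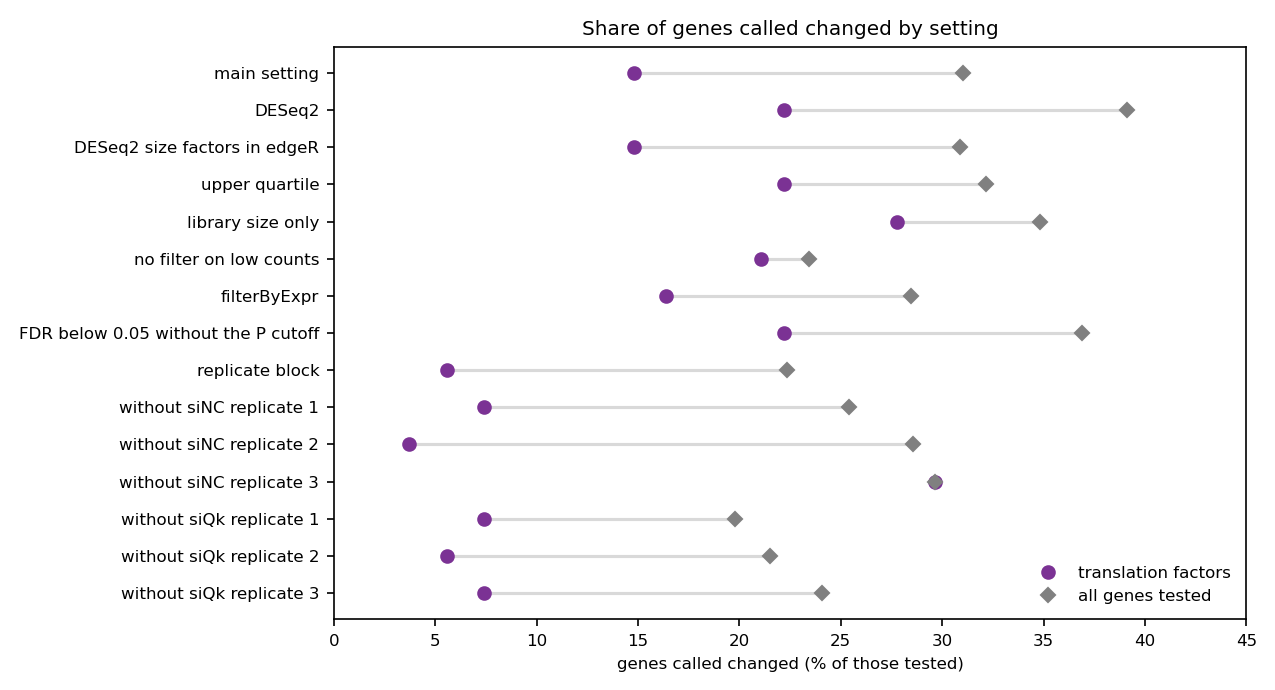
Share of genes called changed (percent of those tested, horizontal axis) under the main analysis and the 14 alternatives, for the translation factors (circles) and for all genes tested (diamonds). The circle lies left of the diamond in each row but that without siNC replicate 3, where both stand at 29.6% and 29.7%.

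**Figure D2:**
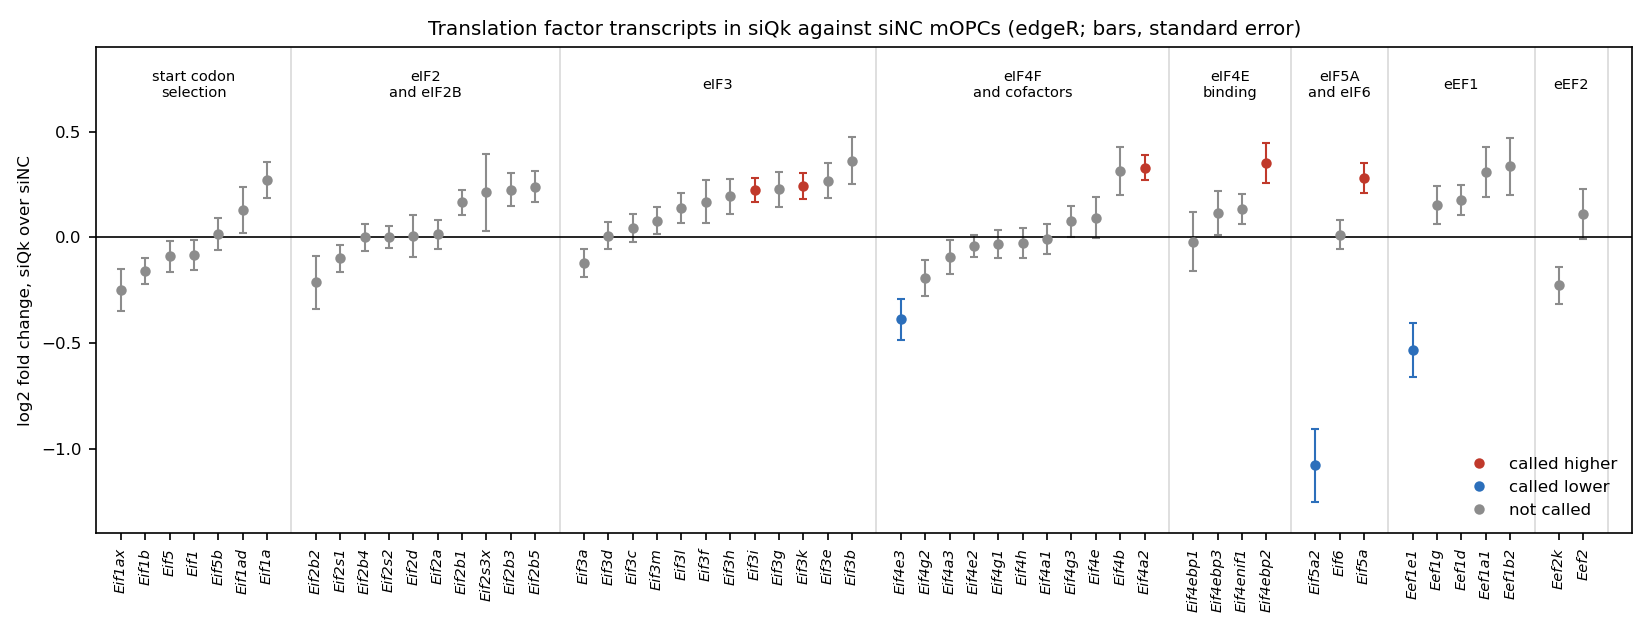
Log2 fold change (siQk against siNC, edgeR with TMM, vertical axis) of the 54 tested factors, grouped by role, with bars of 1 SE. Red points were called higher (5 genes), blue points lower (3 genes), and Eif5a2 stands farthest from 0 at -1.08.

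Of the 7 factors of start codon selection, 3 had an unadjusted P below 0.05 in the main edgeR analysis, against 48.8% of all genes. None of the 7 was called, and their log2 fold changes ran from -0.25 to 0.27. These were Eif1 and its paralog Eif1b, Eif1a and its X-linked paralog Eif1ax, Eif5, the GTPase factor Eif5b that joins the subunits, and Eif1ad, a nuclear protein related in sequence to eIF1A. Eif1ax was at 164, 178 and 225 RPKM in siNC and at 186, 170 and 172 RPKM in siQk. These RPKM ranges overlapped, with siNC replicate 3 the highest of all 6 libraries, and separated only after TMM scaling, with siQk the lower group. The log2 fold change was -0.25 (SE 0.10, FDR = 0.0933). Eif1a was at 12.5, 13.7 and 16.4 RPKM in siNC and at 19.3, 19.7 and 18.0 RPKM in siQk. Its log2 fold change of 0.27 (SE 0.086, FDR = 0.0467) missed the P cutoff, and it was called higher with DESeq2, upper-quartile scaling, library size alone, an FDR of 0.05 alone or without siNC replicate 3 (0.36), the only call of this group in any alternative. Eif5, which stimulates GTP hydrolysis by eIF2, had a log2 fold change of -0.09 and Eif5b of 0.02, and Eif1, Eif1b and Eif1ad were at -0.08, -0.16 and 0.13.

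The eIF2 and eIF2B group had no gene called among 10 in the main edgeR analysis, with log2 fold changes from -0.21 to 0.24. An unadjusted P below 0.05 was found for 3 of the 10, against 48.8% of all genes. The eIF2 subunits Eif2s1, Eif2s2 and Eif2s3x were at -0.10, 0.00 and 0.21. Of the 5 subunits of eIF2B, Eif2b4 was closest to no change, at 19.6, 21.2 and 23.7 RPKM in siNC and 23.4, 24.1 and 24.0 RPKM in siQk. Eif2b5, the catalytic subunit, had a log2 fold change of 0.24 (SE 0.073, FDR = 0.0407) and missed the P cutoff, with 37.9, 40.0 and 46.6 RPKM in siNC and 56.8, 52.5 and 53.6 RPKM in siQk. It was called higher in 6 of the 14 alternatives, DESeq2 and that without siNC replicate 3 (0.30) among them. Eif2b1 and Eif2b3 had log2 fold changes of 0.17 and 0.23 and were called only with library size alone and, for Eif2b1, upper-quartile scaling. Eif2b2 was set apart by siNC replicate 3: it was at 34.1, 31.0 and 45.8 RPKM in siNC, while the siQk libraries lay between 35.2 and 35.4 RPKM. The separate proteins Eif2a and Eif2d, which can deliver tRNA to the ribosome without eIF2, were both at 0.01. Eif2s3y, the Y-linked copy of Eif2s3x, had 0 tags in all 6 libraries, a count that allows up to 3 tags per library, as did the Y-linked genes Ddx3y, Kdm5d and Uty.

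eIF3, the largest initiation factor, had 12 tested subunits, of which Eif3k and Eif3i were called higher and none lower. These are 16.7% of the subunits, near the 13.8% of all genes called higher, where 17.2% were called lower. The log2 fold changes were positive for 11 of the 12, where 51.2% of all genes were positive, and had a median of 0.18, ranging from -0.12 for Eif3a to 0.36 for Eif3b. With library size alone all 12 were positive, and with DESeq2's size factors 10 were. Without siNC replicate 2 the median fell to 0.12, with 10 of 12 positive. Eif3k was at 52.7, 52.7 and 59.1 RPKM in siNC and at 73.4, 73.9 and 68.6 RPKM in siQk. Eif3i was at 53.8, 55.4 and 60.4 RPKM in siNC and at 72.7, 75.8 and 71.4 RPKM in siQk. For both subunits, which sit at the periphery of the complex, the groups did not overlap, with log2 fold changes of 0.24 (SE 0.061, FDR = 0.0223) for Eif3k and 0.22 (SE 0.057, FDR = 0.0227) for Eif3i.
Eif3b, the scaffold that joins Eif3i and Eif3g to the complex, had the highest fold change of all 54 factors but was not called (log2 fold change 0.36, SE 0.11, edgeR FDR = 0.0424), since it missed the P cutoff. Its levels were 85.8, 88.0 and 70.8 RPKM in siNC and 117, 120 and 113 RPKM in siQk, so that siNC replicate 3 was here the lowest library. The subunits Eif3c, Eif3d, Eif3f, Eif3l and Eif3m had log2 fold changes of 0.01 to 0.17, and Eif3e, Eif3g and Eif3h were at 0.27, 0.23 and 0.19, none of them called in the main analysis. The gene listed as Eif3j could not be tested at 52 to 114 tags. Its exon length in the files is only 293 bases, and its levels were 3.05, 3.51 and 2.89 RPKM in siNC against 2.03, 2.31 and 1.65 RPKM in siQk. When the filter on low counts was removed or replaced by edgeR's filterByExpr, Eif3j was called lower, at -0.79 and -0.80.

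Among the 11 tested factors of eIF4F and its cofactors, Eif4a2 was called higher and Eif4e3 lower (18.2% called, against 31.0% of all genes). Eif4a2, a paralog of the helicase Eif4a1, was at 88.7, 92.5 and 96.4 RPKM in siNC and at 129, 127 and 131 RPKM in siQk. The groups were far apart compared with their spread, and the log2 fold change was 0.33 (SE 0.059, FDR = 0.00707). Eif4a1 was at 120, 114 and 119 RPKM in siNC and at 136, 127 and 128 RPKM in siQk, a log2 fold change of -0.01 (SE 0.073, FDR = 0.937). Eif4e3, an atypical member of the cap-binding family, was at 5.001, 6.35 and 6.19 RPKM in siNC and at 4.74, 5.05 and 5.08 RPKM in siQk. These RPKM ranges overlapped and separated only after TMM scaling, with a log2 fold change of -0.39 (SE 0.096, FDR = 0.0212), and the call was absent in 8 of the 14 alternatives. Eif4e, the principal cap-binding subunit, was at 46.4, 51.5 and 41.4 RPKM in siNC and at 55.8, 55.4 and 54.0 RPKM in siQk, and its log2 fold change was 0.09 (SE 0.096, FDR = 0.476). The scaffolds Eif4g1, Eif4g3 and Eif4g2, the last a relative that lacks the eIF4E binding site, had log2 fold changes of -0.03, 0.07 and -0.19. Eif4a3, a helicase of the exon junction complex, the cap-binding relative Eif4e2 and the cofactor Eif4h were at -0.09, -0.04 and -0.03. Eif4b, which stimulates the helicase, was at 73.3, 79.5 and 103 RPKM in siNC and at 125, 116 and 110 RPKM in siQk. Its log2 fold change was 0.31 (SE 0.11, FDR = 0.0680) and it was called only with library size alone or without siNC replicate 3.

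Of the 4 genes whose proteins bind eIF4E, only Eif4ebp2 was called, and it was higher, where 13.8% of all genes were called higher. It encodes a repressor that holds eIF4E away from eIF4G until mTORC1 phosphorylates it, and it was at 31.9, 34.8 and 41.2 RPKM in siNC and at 46.4, 56.4 and 49.7 RPKM in siQk. The groups did not overlap, and the log2 fold change was 0.35 (SE 0.095, FDR = 0.0281). Its relative Eif4ebp1 was at 4.75, 4.39 and 5.27 RPKM in siNC and at 5.95, 4.86 and 4.95 RPKM in siQk (log2 fold change -0.02, SE 0.14, FDR = 0.917). Eif4ebp3 was at 5.29, 6.20 and 6.81 RPKM in siNC and at 7.47, 7.58 and 6.94 RPKM in siQk (log2 fold change 0.12, SE 0.10, FDR = 0.409). Both lay several-fold below Eif4ebp2 in RPKM, a scale per exon length. Eif4enif1, which carries eIF4E to the nucleus and to processing bodies, was at 17.9, 21.7 and 22.0 RPKM in siNC and at 26.1, 23.8 and 24.98 RPKM in siQk (log2 fold change 0.13, SE 0.073, FDR = 0.187). The ratio of the summed RPKM of the 3 binding proteins Eif4ebp1, Eif4ebp2 and Eif4ebp3 to that of Eif4e was 0.906, 0.881 and 1.29 in siNC and 1.07, 1.24 and 1.14 in siQk. These ratios overlapped, with siNC replicate 3 the highest of all libraries.

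Eif5a2 fell and Eif5a rose. Eif5a2 was at 12.8, 13.96 and 11.1 RPKM in siNC (12.6 ± 1.46, SD, n = 3) and at 7.28, 5.15 and 7.47 RPKM in siQk (6.63 ± 1.29, SD, n = 3). Every siQk library was below every siNC library, and the log2 fold change was -1.08 (SE 0.17, FDR = 0.00488), that is 0.473 of the siNC level. Eif5a was at 205, 207 and 232 RPKM in siNC (215 ± 15.3, SD, n = 3) and at 298, 298 and 271 RPKM in siQk (289 ± 15.6, SD, n = 3). These groups did not overlap either, with a log2 fold change of 0.28 (SE 0.071, FDR = 0.0230). Within siQk, replicate 2 had the most Qk (76.6 RPKM) and the least Eif5a2, while within siNC, replicate 3 had the least of both, and a relation between the levels was not tested. The genes lie at chr11:69916712-69921958 (Eif5a) and chr3:28781032-28798846 (Eif5a2). Eif6, which keeps the ribosomal subunits apart until the large one is mature, was at 0.01. Dhps and Dohh, the enzymes that make hypusine on eIF5A, were not called, with log2 fold changes of -0.06 to -0.02.

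**Figure D3:**
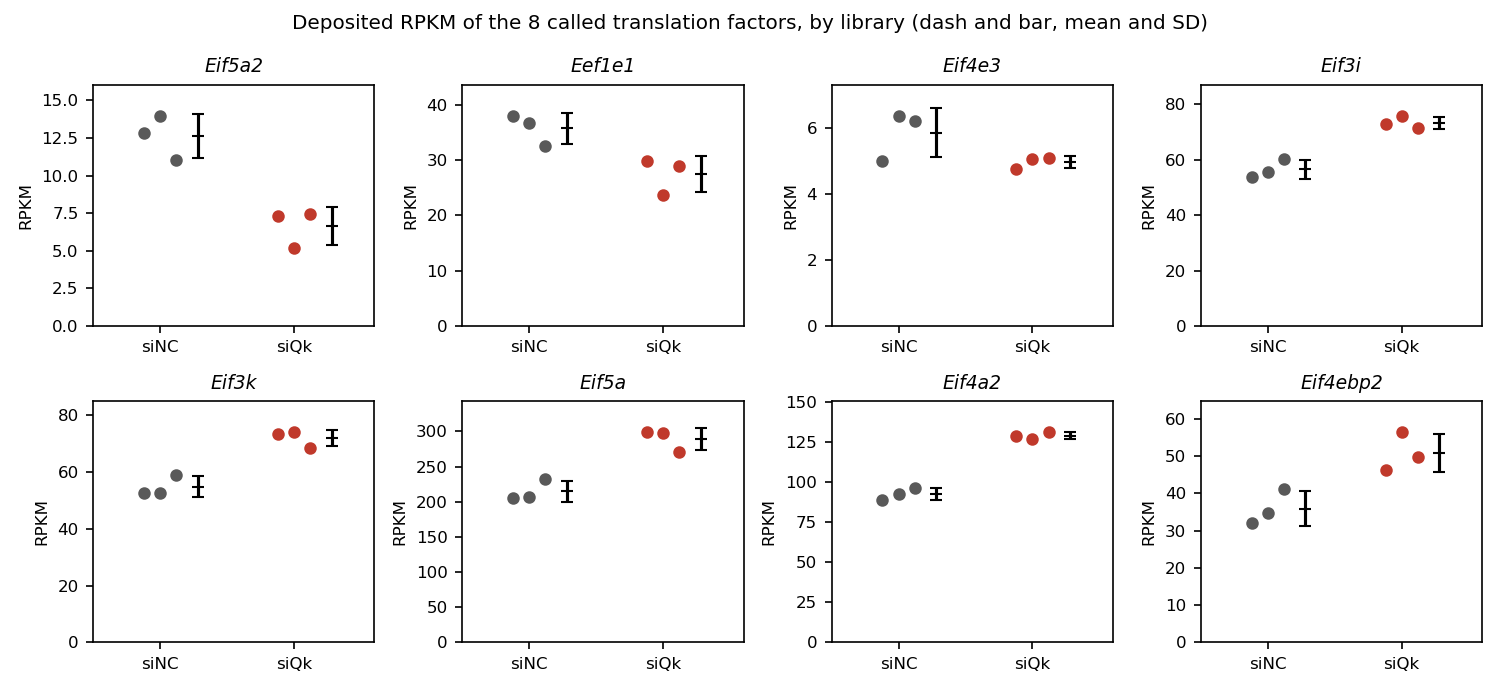
RPKM (vertical axes, each starting at 0) of the 8 called factors in the 3 siNC and 3 siQk libraries, with points for libraries and, beside them, the mean with a bar of 1 SD. The groups do not overlap for 7 of them, while for Eif4e3 the highest siQk library (5.08 RPKM) lies above the lowest siNC library (5.001 RPKM).

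Eif4a2 and Eif5a2 were called under all 14 alternatives, whichever library was left out, with log2 fold changes of 0.31 to 0.35 and of -1.19 to -0.92 over the 6 analyses with a library left out. The other 6 called factors kept their direction in these analyses but lost the call in some of them, each at a P of 0.0102 to 0.0314 and an FDR of 0.0422 to 0.0982. Among these 6 analyses, Eif5a and Eif3k were called only without siNC replicate 3 or without siQk replicate 3, at 0.24 to 0.32 and 0.20 to 0.27 on the log2 scale over all of them. Eif4ebp2 and Eef1e1 were called only without siNC replicate 3 or without siQk replicate 1, at 0.28 to 0.43 and -0.62 to -0.43. Eif3i was called only without siNC replicate 3, at 0.20 to 0.25, and Eif4e3 only without siNC replicate 1, at -0.45 to -0.33.

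The elongation factors held the most abundant of all these transcripts. Eef1a1 was at 1587, 1631 and 2114 RPKM in siNC and at 2467, 2613 and 2236 RPKM in siQk. It made up 0.298% to 0.397% of the tags in siNC and 0.420% to 0.491% in siQk. Its log2 fold change of 0.31 (SE 0.12, FDR = 0.0822) missed the P cutoff. It was called only without siNC replicate 3, at 0.42. Eef1b2, a subunit of the exchange factor that recharges eEF1A, behaved likewise, at 155, 143 and 210 RPKM in siNC and 236, 256 and 218 RPKM in siQk, with 0.34 in all libraries (FDR = 0.0924) and 0.49 without siNC replicate 3. The other exchange factor subunits, Eef1d and Eef1g, were at 0.18 and 0.15 and were not called. Eef2 was at 530, 508 and 668 RPKM in siNC and at 699, 728 and 617 RPKM in siQk, which overlapped (log2 fold change 0.11, FDR = 0.481). Eef2k, the kinase that inhibits eEF2, was at -0.23 (FDR = 0.0847). Eef1a2, which replaces Eef1a1 in mature neurons and muscle, had 0 to 4 tags per library, and Eif4e1b, an oocyte relative of Eif4e, had 0 to 3.

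Eef1e1 was the only elongation-named gene called, and it was lower, where 17.2% of all genes were called lower. Despite its name its protein is an auxiliary subunit of the complex of aminoacyl-tRNA synthetases. It was at 37.9, 36.7 and 32.5 RPKM in siNC and at 29.8, 23.6 and 28.9 RPKM in siQk. The groups did not overlap, and the log2 fold change was -0.53 (SE 0.13, FDR = 0.0194).

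Paralog pairs were also compared within each library, as the share of one gene in the summed RPKM of both, which no scaling between libraries can alter. Of 8 pairs, 4 had shares that did not overlap between groups. Of all single genes, 54.4% did not overlap on the RPKM scale divided by the TMM factor, a measure other than a share. For 3 siNC against 3 siQk libraries the exact permutation test, two-sided, gave its smallest possible p of 0.1 for each of these 4 pairs (adjusted p = 0.2 over the 8 pairs). The design therefore cannot reach a threshold of 0.05. The share of Eif5a2 in Eif5a and Eif5a2 was 5.90%, 6.31% and 4.54% in siNC and 2.38%, 1.70% and 2.68% in siQk. In RPKM the ratio of Eif5a to Eif5a2 was 17.3 in siNC and 45.1 in siQk. These values rest on the deposited exon lengths, 2005 bases for Eif5a and 4992 for Eif5a2. The difference in share, siQk minus siNC, was -3.33 percentage points in RPKM and -7.40 in tag numbers. The share of Eif4a2 in Eif4a1 and Eif4a2 was 42.4%, 44.8% and 44.8% in siNC and 48.6%, 50.01% and 50.7% in siQk, so that the level of Eif4a2 came to that of Eif4a1. The share of Eif4e3 in Eif4e3 and Eif4e went from 11.2% ± 1.65 to 8.26% ± 0.399, and that of Eif1ax in Eif1ax and Eif1a from 93.0% ± 0.187 to 90.2% ± 0.575 (SD, n = 3 each).
The other 4 shares overlapped between groups. Eif1b made up 47.4% of Eif1 and Eif1b in siNC and 46.2% in siQk, and Eif4g3 made up 20.3% and 21.5% of Eif4g1 and Eif4g3 (exact permutation p = 0.4 for both). Eif4ebp1 made up 11.8% and 9.45% of Eif4ebp1 and Eif4ebp2, and Eif4e2 made up 28.7% and 26.6% of Eif4e and Eif4e2 (exact permutation p = 0.3 for both). Reads that match several genes limit some of these values. Of the 75-base windows of its transcripts, Eif4a1 shared 62.9% with other genes, Eef1g 56.5%, Eef1a1 41.7% and Eif4ebp3 64.2%, while 32 of the 58 factors shared none.

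**Figure D4:**
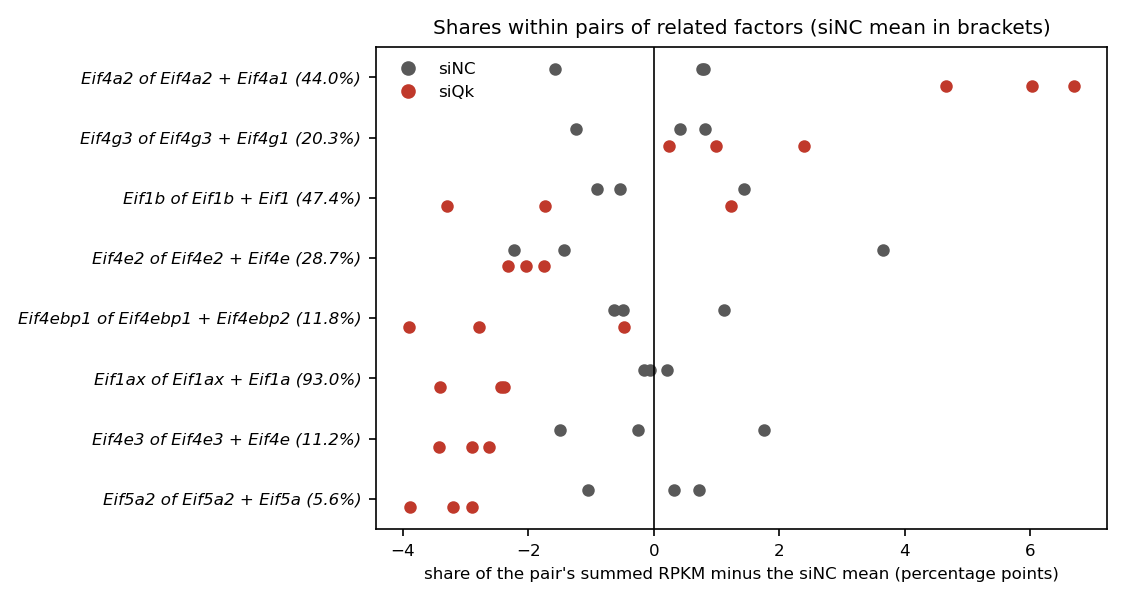
Share of one paralog in the summed RPKM of its pair, drawn as the difference from the siNC mean in percentage points (horizontal axis), for 8 pairs with the siNC mean in brackets. Each point is a library, grey for siNC and red for siQk, and the 2 colours do not overlap for Eif4a2, Eif1ax, Eif4e3 and Eif5a2.

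Among 42 genes that act with these factors (eIF2 alpha kinases and phosphatase subunits, poly(A)-binding proteins, mTORC1 and MNK kinases, helicases and reinitiation factors, termination, hypusine and mitochondrial factors), 12 (28.6%) were called, close to the 31.0% of all genes. Called higher were 7, and called lower were 5, where 13.8% and 17.2% of all genes were called higher and lower. Eif2ak4 (GCN2), the eIF2 alpha kinase that senses uncharged tRNA, was at 7.41, 7.38 and 9.19 RPKM in siNC and at 12.9, 13.8 and 13.5 RPKM in siQk (log2 fold change 0.60, SE 0.083, FDR = 0.00301). Eif2ak3 (PERK), the kinase of the endoplasmic reticulum, and Ppp1r15b, a subunit of the phosphatase that reverses both, were called lower at -0.28 and -0.42. Pabpc1, the main cytoplasmic poly(A)-binding protein, was at 69.8, 77.9 and 86.0 RPKM in siNC and at 125, 132 and 112 RPKM in siQk, with no overlap (log2 fold change 0.51). Pabpc4 was also at 0.51, while the interacting proteins Paip1 and Paip2b were called lower at -0.41 and -0.43. The reinitiation partners Mcts1 and Denr were called higher at 0.37 and 0.22, as were the release factor gene Gspt2 at 0.48 and the mitochondrial elongation factor gene Tufm at 0.40, and the helicase Dhx29 was called lower at -0.23. None of the 9 mTORC1 and MNK genes was called in the main edgeR analysis. An unadjusted P below 0.05 was found for 2 of the 9, against 48.8% of all genes. DESeq2 called 1 of the 9, library size alone 2, and 5 other alternatives 1 each, that without siNC replicate 2 among them. Eif2ak4, Pabpc1, Pabpc4 and Paip1 were called under all 14 alternatives, and the other 8 under 6 to 11 of them.

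Qki proteins bind RNA at the core sequence ACUAAY, and so the letters ACTAAC and ACTAAT were searched on the transcript strand in the longest annotated 3'UTR of each tested gene (GENCODE M21, at least 50 bases). They were present in 11 of the 54 factors (20.4%) and in 36.1% of 11825 genes, at 0.182 and 0.345 sites per kilobase. The factors had shorter 3'UTRs, with a median of 935 bases against 1287 for all genes. Of the 8 called factors only Eef1e1 had a match. Its site is shown with that of Eif4a1, the paralog of the called Eif4a2, and with both sites of Eif4b, with the matched letters in capitals. They lie at chr13:38646095-38646124 (Eef1e1, minus strand), chr11:69667197-69667226 (Eif4a1, minus strand), and chr15:102095918-102095947 and chr15:102095993-102096022 (Eif4b, plus strand) of GRCm38.
Eef1e1: ttggaccatggtACTAATgtaaattaatat
Eif4a1: ccccccccaaacACTAATgcatttccctaa
Eif4b: agtctacggggcACTAACaagtagttcccg
Eif4b: tttggggaggtgACTAATtatattttatac
A match describes the letters alone, and binding was not measured in these files. Eif5a, Eif5a2, Eif4a2, Eif4e3, Eif4ebp2, Eif3i and Eif3k had no match in this window.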

How the data were processed

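Poly(A)-selected RNA of 6 mOPC cultures was sequenced by the authors as 75-nt paired-end reads (TruSeq RNA Sample Prep Kit v2, NextSeq 500), aligned to mm10 with OLego and quantified per gene with Quantas. Versions and gene annotation are not given in the sources used here, and tags may stand for single reads or for pairs. The authors deposited the tag number, an estimated count that carries decimals in 23.1% to 26.2% of genes per library, with the exon length. They also deposited RPKM, which recomputing from the same files matched to a relative error of 1e-14.

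Estimated counts were rounded. All genes with an average logCPM over 0 were fitted with edgeR 4.0.16 (limma 3.58.1, R 4.3.3), TMM factors and the group as the only term, as the paper names edgeR. Genes were called at P below 0.01 and Benjamini-Hochberg FDR below 0.1 over all genes tested. SE is the absolute log2 fold change over the square root of F. RPKM means are given ± SD. The step was tested only on simulated data with changes larger than those of most factors and with no deviating library. Changes as small as those of most factors were not covered. Replicates of a group differed by a chi-square per degree of freedom of 44.7 or more, so that none repeated another.

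The factors, roles, pairs and gene lists were chosen with earlier results of these data known. All factors are named by role. By rule, the 6 libraries' values are given for the called factor that changed most in each direction in each role, called factors with an absolute log2 fold change of 0.5 or more, pairs with a called factor, the eIF4E-binding group and the most abundant factor, and partners are named where called. Other factors given in full, and Dhps and Dohh, were chosen after their values were seen. Alternatives were DESeq2 1.42.0, other scalings and filters, an FDR of 0.05 alone, the replicate number as a block, and each library left out. Reads shared between paralogs or overlapping genes, and antisense genes since the kit does not mark strand, leave values uncertain to that degree. Isoforms, and the study's other cell types, were not analysed here.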

Additional observations from a re-analysis of the deposited data

How the results depend on the processing

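Of the 54 factors, 8 were called in the main analysis, 5 higher and 3 lower (13.8% and 17.2% of all genes). With library size alone 15 were called, 14 higher and 1 lower, and with the replicate number as a block 3 were called, 1 of them higher. Calls of higher factors were 9 of 54 with DESeq2, where 2213 of all 12505 genes were called higher. Upper-quartile scaling gave 10 of 54, where 17.9% of all genes were called higher. No filter on low counts gave 8 of 57, against 2112 of 19223 genes. An FDR of 0.05 alone gave 9 of 54, against 2119 of 12505 genes. With each library left out in turn, 2 to 16 of the 54 factors were called, 1 to 14 higher and 1 to 2 lower. All genes gave 2478 to 3704 calls (19.8% to 29.7% of those tested) and the 42 partner genes 4 to 10. Without siNC replicate 3, which gave the 14 higher calls, 12.9% of all genes were called higher and 16.8% lower. The partners gave 12 calls in the main analysis and 6 with the replicate block. By library, 16 factors were called without siNC replicate 3, 2 without siNC replicate 2, 3 without siQk replicate 2 and 4 without each of siNC replicate 1, siQk replicate 1 and siQk replicate 3, and all genes gave the fewest calls, 2478, without siQk replicate 1. The cause was not tested, although each such analysis has 1 library fewer.

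Samples with the same replicate number did not deviate together, with correlations of their deviations from the group means of -0.051, -0.136 and -0.331. The labels give only a number, so the block is no pairing of the samples. Under the block Eif4a2, Eif5a2 and Eef1e1 were called.

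Over the 14 alternatives, 18 of the 54 factors changed sign at least in one analysis. None of the 18 was called under any of them, and their absolute main values were 0.123 or less. Of those given in full, Eif4a1 (-0.01 in the main analysis, log2 scale) was at 0.052 with upper-quartile scaling, 0.14 with library size alone, 0.015 without a filter and 0.0058 with filterByExpr, and at -0.043 to 0.050 with a library left out. Eif4ebp1 (-0.02) was at 0.040 with upper-quartile scaling, 0.13 with library size alone, 0.0031 without a filter, and at -0.12 to 0.041 with a library left out. Eif4e (0.09) was at -0.0059 to 0.16 with a library left out, the lowest of these without siNC replicate 3. The filter on low counts left out Eef1a2, Eif2s3y and Eif4e1b, with 0 to 4 tags per library, and Eif3j. The 8 paralog shares kept their direction in all alternatives that could alter them.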
